A study of Homo sapiens with 24 samples.

Results

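The 9 genes described here belong to a pair of gene clusters on the long arm of human chromosome 22, the APOBEC3 cytidine deaminases and the apolipoprotein L (APOL) family. They were chosen by name, with earlier results of these data known, out of 60609 gene rows in the expression table. They comprise 5 APOBEC3 genes (APOBEC3B, APOBEC3C, APOBEC3D, APOBEC3F and APOBEC3G) and 4 APOL genes (APOL1, APOL2, APOL3 and APOL6). APOBEC3 enzymes convert cytosine to uracil in single-stranded DNA and in this way damage the genomes of retroviruses and other replicating elements; APOBEC3B is also a known source of mutations in tumour genomes. APOL proteins bind lipids and membranes, and several members of both families are known targets of interferons in human cells. Interferon acts through the receptor chains IFNAR1 and IFNAR2, the kinases JAK1 and TYK2, and a transcription factor complex that includes STAT2 and IRF9.

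Transcript levels were measured in A549, an established human line of lung adenocarcinoma origin, by sequencing of polyadenylated RNA. Cells were transfected for 48 h with a pool of siRNAs against BOP1 (siBOP1), whose product is needed to make the large ribosomal subunit, or with a control siRNA named for firefly luciferase (siFLuc), an insect gene. For the following 8 h or 12 h they received either 1000 U/mL of interferon beta (IFN) or mock treatment. The 8 groups are siFLuc mock, siFLuc IFN, siBOP1 mock and siBOP1 IFN at each of the 2 times, with 3 libraries each and 24 in all, and every group, controls included, received an siRNA. All groups share 1 cell line, the BOP1 siRNAs were delivered only as a pool, and nothing in the labels says that libraries of a group came from separate cultures, so p-values measure only the spread between these libraries.

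BOP1 lay between 10.0 and 19.5 TPM in the siBOP1 libraries and between 32.4 and 78.8 TPM in the siFLuc libraries, where TPM is each gene's share of all transcripts, corrected for transcript length, in a library that sums to 1000000. Between 13844 and 14509 genes reached 1 TPM in a library, and sequencing depth is unknown because TPM values do not keep it. The keratins KRT8 and KRT18, which mark epithelium, stood at 2086 to 3803 and 1785 to 2862 TPM. Of other epithelial markers, KRT7 stood at 1162 to 2161 TPM, KRT19 at 62.5 to 161 TPM and CDH1 at 23.8 to 105 TPM. EPCAM, also an epithelial marker, was low at 1.92 to 5.48 TPM. Markers of differentiated lung epithelium were low as well: NKX2-1 and SFTPB stayed under 1 TPM in all 24 libraries, SFTPC did not exceed 1.61 TPM and NAPSA ranged from 0.666 to 4.55 TPM. The libraries of each group carry the numbers 1, 2 and 4, and those numbered 4 stood apart for 3 of the 9 genes (APOBEC3B, APOL1 and APOL2), as described after the interferon results. The labels number replicates only up to 3, so the libraries numbered 4 were used as members of their group with no replicate number of the labels.

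In GENCODE 29 on GRCh38 the 5 APOBEC3 genes lie head to tail on the plus strand within 105 kb, from APOBEC3B (chromosome 22, 38982347 to 38992804) through APOBEC3C (39014083 to 39020352), APOBEC3D (39021113 to 39033276) and APOBEC3F (39040604 to 39053910) to APOBEC3G (39077005 to 39087743). The APOL genes lie 2.71 Mb closer to the centromere. APOL6 (35648395 to 35668409, plus strand) is apart from APOL3 (36140330 to 36166177, minus strand), APOL2 (36226203 to 36239954, minus strand) and APOL1 (36253010 to 36267530, plus strand), and the last 3 fit within 127 kb. APOL1 and APOL2 are transcribed away from each other, from start sites 13.1 kb apart. All 9 are annotated as protein-coding. The build behind the expression table is not given in the sources used here, and 7 of the 9 identifiers carry another version number in GENCODE 29.

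Sequence shared between neighbours limits how well some members can be told apart. Of all windows of 75 bases in the coding transcripts of APOBEC3D, 81.4% also occur in another annotated gene, and most (80.1%) in 1 gene model, AL022318.4. The share was 31.7% for APOBEC3B, mostly with APOBEC3A (22.5%), whose annotated span overlaps it, 15.8% for APOBEC3F and 14.7% for APOBEC3G, which share windows with each other. The antisense gene APOBEC3B-AS1 was listed at 0 to 0.107 TPM in mock libraries and at 0 under interferon. The share of windows found in another gene was 0.255% for APOBEC3C, 0.413% for APOL1 and 0 for APOL2, APOL3 and APOL6. The handling of reads common to several genes is not given, and values of APOBEC3B, APOBEC3D, APOBEC3F and APOBEC3G carry that uncertainty.

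Without interferon, APOL2 was the highest of the 9 genes, at 80.4 ± 32.1 TPM (SD, n = 3) in siFLuc cells at 8 h, followed by APOBEC3C at 30.7 ± 3.26 TPM. APOL1 at 15.9 ± 6.91 TPM and APOBEC3B at 14.2 ± 7.16 TPM came next, and the ranges of these last 2 genes overlapped. APOL6 had 5.72 ± 0.55 TPM and APOBEC3F 3.37 ± 0.56 TPM, with no overlap between them. APOBEC3D, APOL3 and APOBEC3G were each below 1 TPM in all 12 mock libraries. With interferon for 8 h the order became APOL2 (518 ± 137 TPM) and APOL1 (315 ± 122 TPM), whose ranges overlapped, then APOL6 (140 ± 17.3 TPM), APOBEC3C (42.0 ± 2.17 TPM), APOBEC3F (30.2 ± 7.41 TPM), APOBEC3B (24.0 ± 9.81 TPM) and APOL3 (18.1 ± 0.58 TPM). From APOBEC3F to APOL3, each gene's range overlapped that of the next. APOBEC3G (2.17 ± 0.76 TPM) and APOBEC3D (0.182 ± 0.182 TPM) were the lowest. These shifts are shown in the plot of levels by library.

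**Figure D1:**
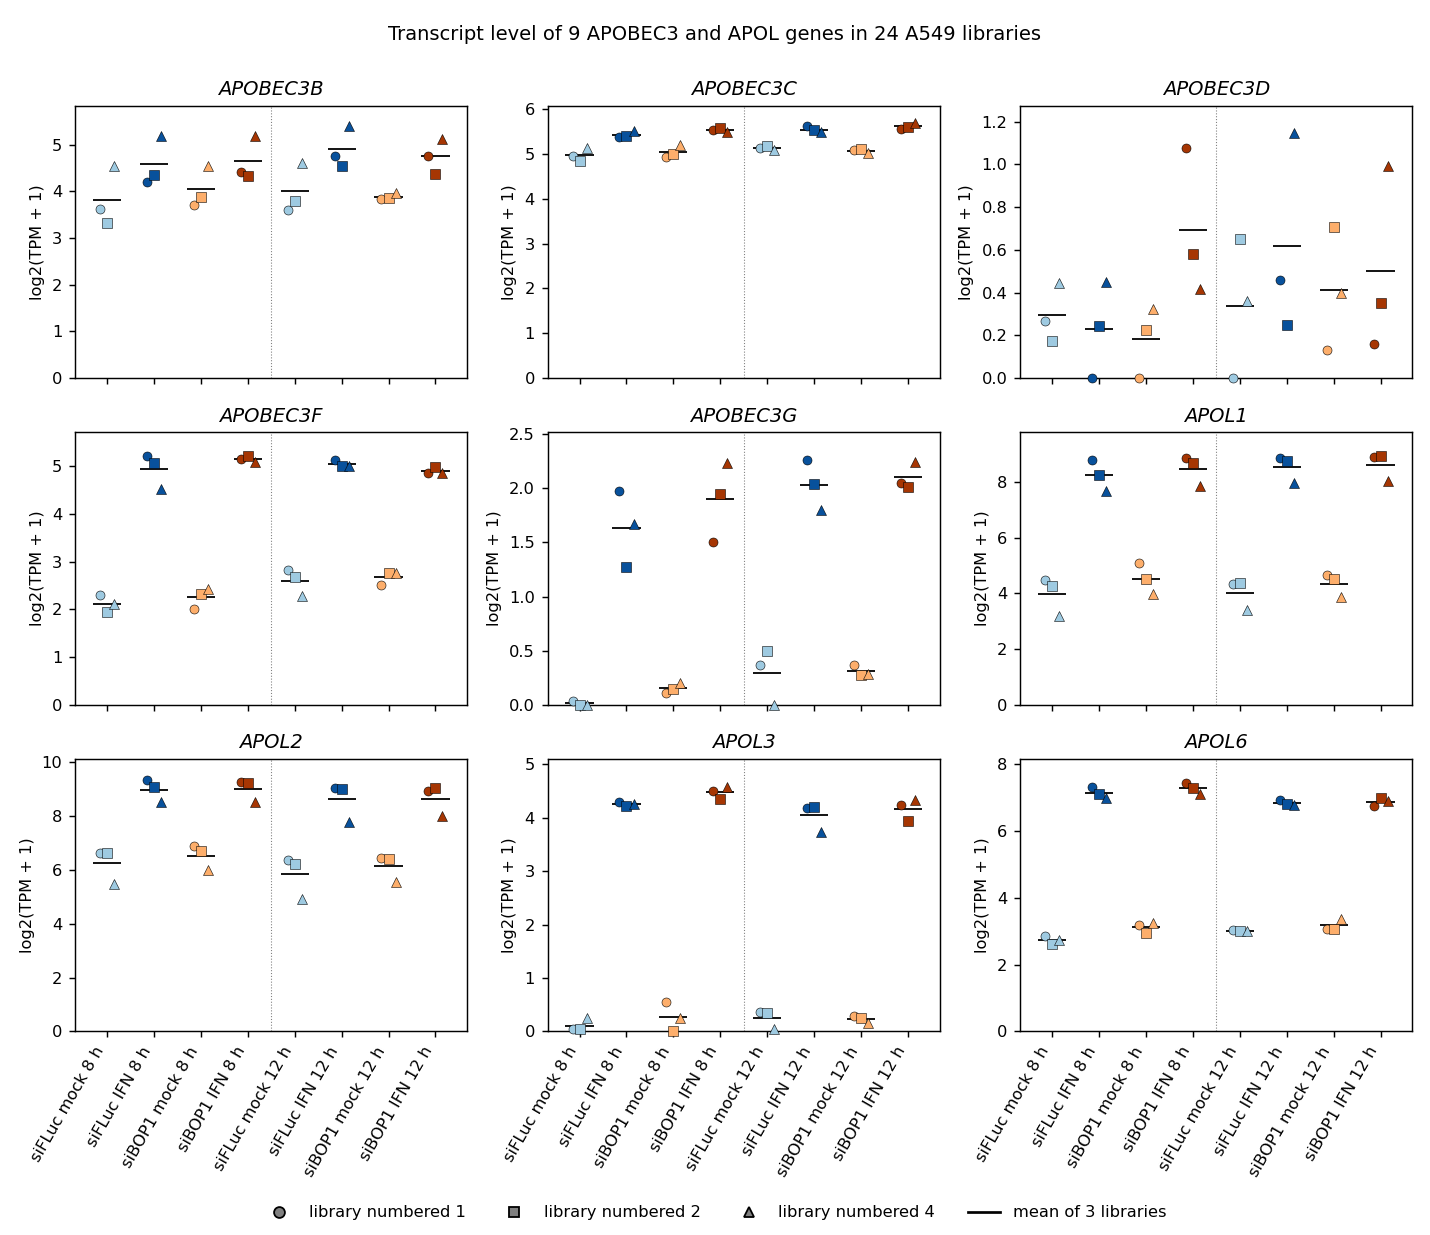
Levels of the 9 genes as log2(TPM + 1) on the vertical axes, by group on the horizontal axes; each point is 1 library, its shape the library number, and each bar the mean of 3 libraries. The interferon libraries of APOBEC3C, APOBEC3F, APOBEC3G, APOL1, APOL2, APOL3 and APOL6 all lie above the mock libraries, whereas the ranges of APOBEC3B overlap in 3 of the 4 comparisons; vertical scales differ between panels.

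The first question was how far interferon raised each gene with either siRNA, at 8 h and 12 h. APOL1, APOL2, APOL6, APOBEC3F and APOBEC3C rose in all 4 comparisons, by 3.70 to 4.49 on the log2(TPM + 1) scale for APOL1 and APOL6, 2.23 to 2.91 for APOL2 and APOBEC3F, and 0.41 to 0.55 for APOBEC3C. Of the 9 genes, 8 reached the filter of 1 TPM in 3 libraries and were tested with limma. APOBEC3G and APOL3 passed that filter only through their interferon libraries, so counts are given for the other 6. Of these, 5 of 6 were called higher in each comparison (limma adjusted p under 0.05 over 16062 genes) and 0 lower. Over all genes tested, 5.77% were called higher in siFLuc cells at 8 h, 7.06% in siFLuc cells at 12 h, 5.99% in siBOP1 cells at 8 h and 7.17% in siBOP1 cells at 12 h. The median change of the 6 genes was 2.77, 2.62, 2.69 and 2.37 in that order, beside -0.09, -0.06, -0.14 and -0.08 for all genes. Mock and interferon libraries did not overlap for 5, 5, 5 and 6 of the 6, beside 9.92%, 11%, 10.1% and 12.4% of all genes that were higher in this way. Because the genes were chosen with earlier results of these data known, the shares of all genes are given as description only. In these bulk samples, more RNA per cell and more cells of a responding kind cannot be told apart.

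Among the deaminases above the filter in mock libraries, APOBEC3F had the largest rise on the log2(TPM + 1) scale. APOBEC3F (ENSG00000128394.17) is packaged into retroviral particles and blocks HIV that lacks its Vif protein. In siFLuc cells at 8 h its mock libraries had 3.96, 2.84 and 3.32 TPM and its interferon libraries 36.2, 32.5 and 21.9 TPM, in the order 1, 2, 4. At 12 h the mock libraries had 6.08, 5.44 and 3.88 TPM and the interferon libraries 34.3, 31.2 and 31.2 TPM. Every interferon library was far above every mock library, and the lowest value under interferon belonged to the library numbered 4 at 8 h. The log2 change was 2.81 at 8 h (SE 0.17, limma adjusted p = 2.76e-11) and 2.45 at 12 h (SE 0.17, adjusted p = 2.8e-10). In siBOP1 cells it was 2.91 and 2.23. There the level went from 3.79 ± 0.69 to 34.7 ± 1.65 TPM at 8 h (SD, n = 3 each), and at 12 h from 4.71, 5.78 and 5.74 TPM to 28.0, 30.9 and 28.1 TPM. The rise at 12 h was thus smaller by 0.36 in siFLuc and 0.68 in siBOP1 cells; the test of that difference is given with the time comparison.

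APOBEC3C (ENSG00000244509.4), a smaller deaminase with a single catalytic domain, was the most abundant of the family in mock cells and had the smallest rise among those called. Its siFLuc mock libraries at 8 h had 30.1, 27.8 and 34.2 TPM and the interferon libraries 40.6, 40.9 and 44.5 TPM. At 12 h the values were 34.1, 34.9 and 33.2 TPM against 47.9, 45.1 and 43.6 TPM. The rise was small but the groups did not overlap in any of the 4 comparisons. The ratio of mean TPM was 1.37 at 8 h and 1.34 at 12 h with siFLuc, and 1.42 and 1.48 with siBOP1. Its log2 changes, in the same order, were 0.44, 0.41, 0.50 and 0.55 (SE 0.09; limma adjusted p = 0.00121, 0.00228, 0.000302 and 9.36e-05). In siFLuc cells at 12 h the call was lost when only the groups compared entered the fit (adjusted p = 0.0519).

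APOBEC3B (ENSG00000179750.16), a mainly nuclear deaminase, differed between library numbers as well as between treatments. In siFLuc cells at 8 h its mock libraries numbered 1, 2 and 4 had 11.3, 8.97 and 22.4 TPM and its interferon libraries 17.5, 19.3 and 35.3 TPM. In siFLuc cells at 12 h the values were 11.2, 12.9 and 23.4 TPM against 26.1, 22.4 and 41.3 TPM. In siBOP1 cells the mock libraries had 12.1, 13.7 and 22.5 TPM at 8 h and 13.2, 13.5 and 14.6 TPM at 12 h. Their interferon counterparts had 20.4, 19.1 and 35.3 TPM at 8 h and 26.2, 19.8 and 34.0 TPM at 12 h. Within each number the interferon library was above the mock library in 12 of 12 pairs. This pairing comes from the column names alone, and the share of all genes with such a count was not computed. The groups overlapped in 3 of the 4 comparisons, and only siBOP1 cells at 12 h had no overlap. The log2 change was 0.75 at 8 h and 0.90 at 12 h with siFLuc, and 0.60 and 0.87 with siBOP1 (SE 0.34). None passed the threshold (limma adjusted p = 0.195, 0.094, 0.274 and 0.0974). With the library number as a block the SE was 0.15 and all 4 passed (adjusted p = 0.00126, 0.000209, 0.00545 and 0.00026), so that 6 of 6 genes were then called higher, beside 8.24%, 11.2%, 8.56% and 11.4% of all genes. The 4 changes also passed among the libraries numbered 1 and 2 only (adjusted p = 0.00242, 0.000594, 0.0138 and 0.00352). Without the siFLuc mock 12 h library numbered 4, the unblocked change at 12 h was 1.20 (adjusted p = 0.0314).

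APOBEC3G (ENSG00000239713.9) and APOBEC3D (ENSG00000243811.10) were the scarce deaminases. APOBEC3G, the family member best known for blocking HIV without Vif, was listed at 0 to 0.411 TPM in the 12 mock libraries and at 1.41 to 3.80 TPM in the 12 interferon libraries. These ranges do not overlap. The 4 log2 changes came to 1.62, 1.74, 1.74 and 1.79, on a scale that understates the change of low genes, and are given with no test because the gene passed the filter only through its interferon libraries. With 0.1 in place of 1 as the pseudocount its change reached 4.33. APOBEC3D, a further deaminase that restricts HIV, stood at 0 to 0.63 TPM in mock and 0 to 1.21 TPM in interferon libraries and was not tested. Its ranges overlapped widely, and 3 of its 24 libraries were listed at 0.

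The summed TPM of the 5 deaminases went from 48.5 ± 10.6 to 98.6 ± 5.14 TPM in siFLuc cells at 8 h and from 55.5 ± 4.68 to 111 ± 8.95 TPM at 12 h (SD, n = 3 each). In siBOP1 cells the sums went from 52.0 ± 9.45 to 108 ± 7.07 TPM and from 52.3 ± 1.12 to 108 ± 8.59 TPM. The mix shifted with the sum. APOBEC3C held 64.3% of it in siFLuc mock cells at 8 h and 42.6% under interferon, APOBEC3F 7.11% and 30.9%, and APOBEC3B 28.1% and 24.1%. These shares are descriptions and were not tested.

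Among the APOL genes, APOL1 (ENSG00000100342.20), a secreted protein of high-density lipoprotein that kills trypanosomes, had 21.5, 18.1 and 8.17 TPM in the siFLuc mock libraries numbered 1, 2 and 4 at 8 h. The interferon libraries had 444, 299 and 202 TPM. At 12 h the values were 18.9, 19.7 and 9.51 TPM against 459, 433 and 248 TPM. Groups did not overlap, and the library numbered 4 was the lowest of its group each time. The log2 change was 4.25 at 8 h and 4.49 at 12 h with siFLuc, and 3.95 and 4.27 with siBOP1 (SE 0.40; limma adjusted p = 7.4e-08, 2.9e-08, 2.21e-07 and 6.71e-08). In siBOP1 cells the means went from 23.1 ± 9.33 to 370 ± 124 TPM at 8 h and from 19.8 ± 5.48 to 407 ± 129 TPM at 12 h (SD, n = 3 each).

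APOL2 (ENSG00000128335.14), an intracellular member, started highest and rose less than its divergent neighbour APOL1. Its siFLuc mock libraries had 98.8, 99.0 and 43.4 TPM at 8 h and its interferon libraries 643, 539 and 372 TPM. At 12 h they had 81.2, 74.3 and 29.4 TPM and 530.4, 521 and 222 TPM. The groups did not overlap, and the libraries numbered 4 were again lowest. The log2 changes were 2.73, 2.79, 2.48 and 2.51 in siFLuc at 8 h and 12 h and siBOP1 at 8 h and 12 h (SE 0.43; limma adjusted p = 0.000108, 7.49e-05, 0.000288 and 0.000241). The ratio of mean TPM was 5.58 to 6.89 over the 4 comparisons, against 16.0 to 23.7 for APOL1. No test compared the changes of these 2 genes.

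APOL6 (ENSG00000221963.6), an intracellular member described as promoting cell death, had the smallest SE of the APOL genes on the log2 scale. Its siFLuc mock libraries had 6.27, 5.18 and 5.71 TPM at 8 h and its interferon libraries 159, 137 and 125 TPM. At 12 h they had 7.26, 6.95 and 6.98 TPM and 121, 110.2 and 107 TPM. The groups were far apart in each comparison. The log2 change was 4.39 at 8 h and 3.82 at 12 h with siFLuc, and 4.15 and 3.70 with siBOP1 (SE 0.12; limma adjusted p = 4.58e-17, 5.21e-16, 1.25e-16 and 7.63e-16). In siBOP1 cells the means went from 7.74 ± 0.87 to 154 ± 19.0 TPM at 8 h and from 8.05 ± 1.15 to 116 ± 9.66 TPM at 12 h (SD, n = 3 each).

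APOL3 (ENSG00000128284.19), a cytosolic protein known to break down the membranes of bacteria, was near 0 in mock cells. It stood at 0 to 0.469 TPM in the 12 mock libraries and at 12.4 to 23.0 TPM in the 12 interferon libraries. Under interferon its libraries in siFLuc cells had 18.7, 17.6 and 18.1 TPM at 8 h and 17.2, 17.4 and 12.4 TPM at 12 h. The ranges do not overlap and lie far apart. Its log2 changes came to 4.15, 3.80, 4.21 and 3.94, again with no test, and reached up to 6.76 with the pseudocount of 0.1.

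Summed over the 4 APOL genes, the level went from 102 ± 38.8 to 991 ± 274 TPM at 8 h and from 84.9 ± 33.9 to 932 ± 298 TPM at 12 h in siFLuc cells. In siBOP1 cells it went from 126 ± 37.1 to 1076 ± 280 TPM and from 100.1 ± 26.4 to 961 ± 274 TPM (SD, n = 3 each). APOL2 held 78.2% of the sum in siFLuc mock cells at 8 h and 52.3% under interferon, APOL1 15.3% and 31.2%, APOL6 6.37% and 14.6%, and APOL3 0.125% and 1.93%. As with the deaminases, the gene that was most abundant before treatment lost share.

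**Figure D2:**
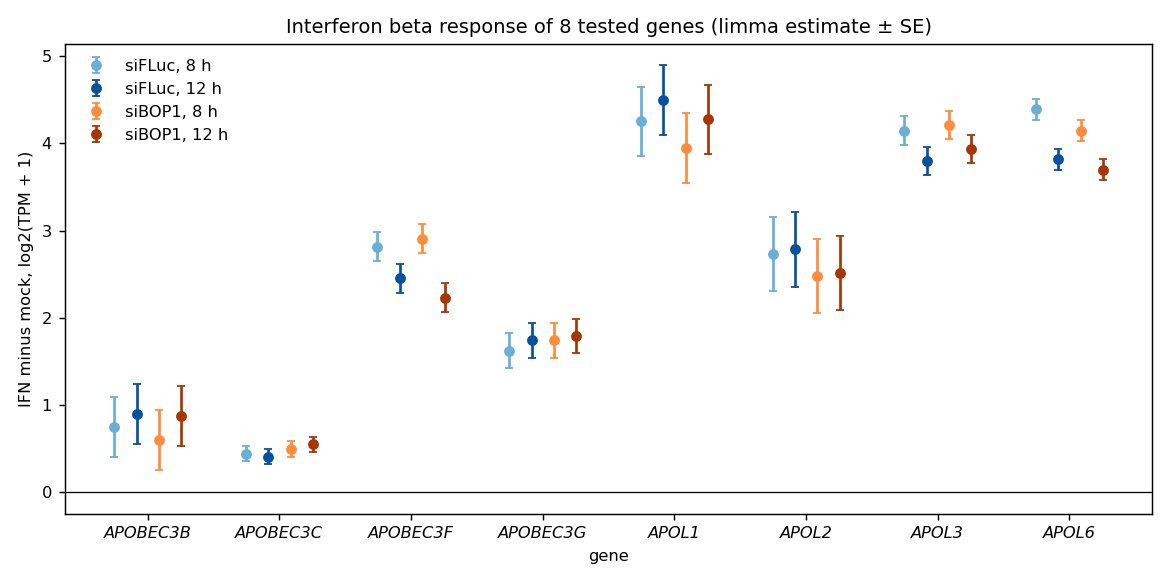
Change with interferon on the log2(TPM + 1) scale (vertical axis) for the 8 tested genes (horizontal axis); points are limma estimates, bars ± SE, and colours the 4 comparisons of siRNA and time. APOL1, APOL3 and APOL6 lie between 3.70 and 4.49, and APOBEC3B and APOBEC3C between 0.41 and 0.90.

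The response was next set beside that of the surrounding chromosome. Of 16 genes that flank the clusters, all tested, 1 was called higher in each comparison, and this was GTPBP1, which codes for a GTP-binding protein. Over all genes, 5.77% and 7.06% were called higher in siFLuc and 5.99% and 7.17% in siBOP1 cells at 8 h and 12 h. A count of 1 of 16 is near what those shares give. GTPBP1 starts at -276.6 kb relative to the start of APOBEC3B and went from 10.9 ± 1.80 to 52.5 ± 13.1 TPM in siFLuc cells at 8 h (SD, n = 3 each; log2 change 2.16, SE 0.17, limma adjusted p = 3.07e-09). Its changes elsewhere were 1.92, 2.22 and 2.03. SUN2, a protein of the nuclear envelope whose gene overlaps GTPBP1 on the other strand, changed by -0.34, -0.61, -0.42 and -0.45 and was called lower only in siFLuc cells at 12 h. Whether the counting used strand is not given, so reads of GTPBP1 and SUN2 in their overlap may not be told apart. Among the flanking genes 0, 2, 1 and 2 fell in siFLuc at 8 h and 12 h and siBOP1 at 8 h and 12 h, beside 5.07%, 6.43%, 9.11% and 7.58% of all genes. Besides SUN2 these were TXN2 at 12 h (-0.33 in siFLuc and -0.35 in siBOP1 cells), MYH9 in siBOP1 cells at 8 h (-0.55) and DNAL4 in siBOP1 cells at 12 h (-0.47). Counts of falls among them ranged from 0 to 6 over the alternatives. The median change of the 16 was -0.28, -0.14, -0.17 and -0.11.

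Other members of the clusters and of the wider cytidine deaminase family were scarce. APOBEC3A, at 0.152 to 1.01 TPM in mock and 0.338 to 2.02 TPM in interferon libraries, and APOBEC3H, at 0.098 to 1.36 and 0.085 to 1.47 TPM, were the 2 of 8 that passed the filter. Neither reached the filter in mock libraries alone, so their log2 changes are given with no test. They were 0.29, 0.55, 0.69 and 0.53 for APOBEC3A and 0.02, 0.24, 0.08 and 0.12 for APOBEC3H. APOL4 was listed at 0 in all mock libraries and at 0.216 to 1.25 TPM with interferon. APOL5 and APOBEC1 were listed at 0 in every library, and APOBEC2 and APOBEC4 did not exceed 0.167 TPM.

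**Figure D3:**
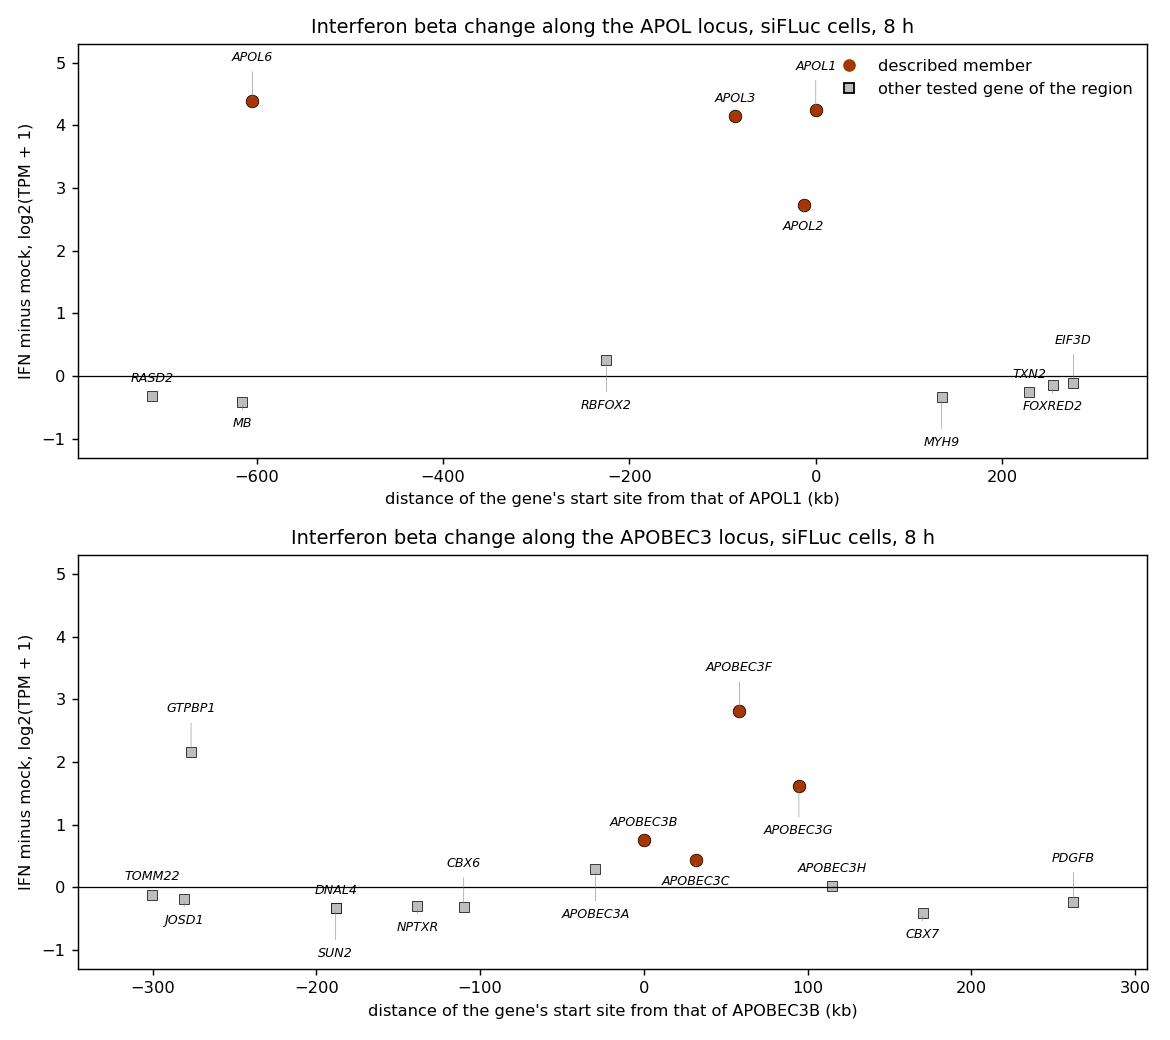
Change with interferon in siFLuc cells at 8 h on the log2(TPM + 1) scale (vertical axes) against the distance in kb of each gene's start site from that of APOL1 (upper panel) or APOBEC3B (lower panel); large points are the described genes and squares other tested genes of the region. GTPBP1 (2.16) is the flanking gene that lies apart from the rest, which range from -0.41 to 0.25.

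Genes of the interferon pathway and other antiviral factors give the scale of the response. Of 12 genes of interferon signalling, 11 reached the filter in mock libraries. Of these 6, 6, 6 and 7 rose in siFLuc at 8 h and 12 h and siBOP1 at 8 h and 12 h. Over all genes, 5.77%, 7.06%, 5.99% and 7.17% were called higher in that order. USP18, a brake on the receptor, rose by 4.75 in siFLuc cells at 8 h (SE 0.13, limma adjusted p = 4.01e-17). IFNAR1 fell at 8 h by 0.59 in siFLuc and 0.41 in siBOP1 cells. Of 17 further restriction factors of retroviruses and retroelements, 16 reached the filter in mock libraries and 12 of 16 rose in each comparison. In the same order 1, 0, 2 and 1 of the 16 were called lower, beside 5.07%, 6.43%, 9.11% and 7.58% of all genes. IFITM1, which hinders virus entry, changed most, by 6.87 in siFLuc cells at 8 h. SERINC5, a membrane protein that lowers HIV infectivity, was at the other end with -0.66 (SE 0.15, adjusted p = 0.00583). It was also called lower in siBOP1 cells at 8 h (-0.84) and 12 h (-0.46). MARCHF8 was called lower in siBOP1 cells at 8 h (-0.42, limma adjusted p = 0.0472). The median change of the 16 restriction factors was 2.61, 2.55, 2.45 and 2.60, beside 2.77, 2.62, 2.69 and 2.37 for the 6 APOBEC3 and APOL genes.

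Markers of other cell types were read in the same libraries. The 10 leukocyte markers summed to 44.1 to 61.2 TPM in mock and 173 to 407 TPM in interferon libraries, so their sum moved with the treatment. Nearly all of it was CD68, a lysosomal protein of macrophages and other cells, which rose by 2.08 to 2.82 on the log2 scale. Of the 10, 8 were under 1 TPM in every library, PTPRC did not exceed 0.021 TPM, and CD3E was listed at 0 throughout. Of 8 markers of endothelium and fibroblasts, 7 were under 1 TPM in every library, and the sum ranged from 6.02 to 20.0 TPM in mock and from 5.96 to 18.8 TPM in interferon libraries.

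The libraries numbered 4 differed from the others of their group in the same direction for 3 genes. APOL1 in the library numbered 4 was 0.413 to 0.596 times the mean of libraries 1 and 2 of the same group, below 1 in 8 of 8 groups, and APOL2 was 0.378 to 0.629 times, also in 8 of 8. APOBEC3B went the other way, at 1.09 to 2.21 times, above 1 in 8 of 8 groups. The lowest of these, 1.09, was in siBOP1 mock cells at 12 h, where libraries 1, 2 and 4 had 13.2, 13.5 and 14.6 TPM. It lies within the range of ratios between libraries 1 and 2 over the 8 groups. Between the libraries numbered 1 and 2 the ratio for APOL1 was 0.655 to 1.04, for APOL2 0.837 to 1.08 and for APOBEC3B 0.756 to 1.15. The mean log2 difference of number 4 was -0.90 for APOL1, -0.98 for APOL2 and 0.73 for APOBEC3B, and 0.575%, 0.412% and 1.14% of all tested genes had a larger one in size. Among the libraries numbered 1 and 2 only, the interferon changes of APOL1 were 4.14, 4.46, 3.98 and 4.34 (limma adjusted p up to 7.5e-09) and those of APOL2 2.56, 2.74, 2.45 and 2.56 (adjusted p up to 3.22e-10). The BOP1 differences of APOL1 in mock cells were then 0.42 at 8 h (adjusted p = 0.285) and 0.23 at 12 h (adjusted p = 0.664). By contrast the median ratio was 0.990 for APOL6, 1.02 for APOBEC3C and 0.954 for APOBEC3F. Over all genes, 8.16% were above and 4.67% below in the library numbered 4 in 8 of 8 groups.

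**Figure D4:**
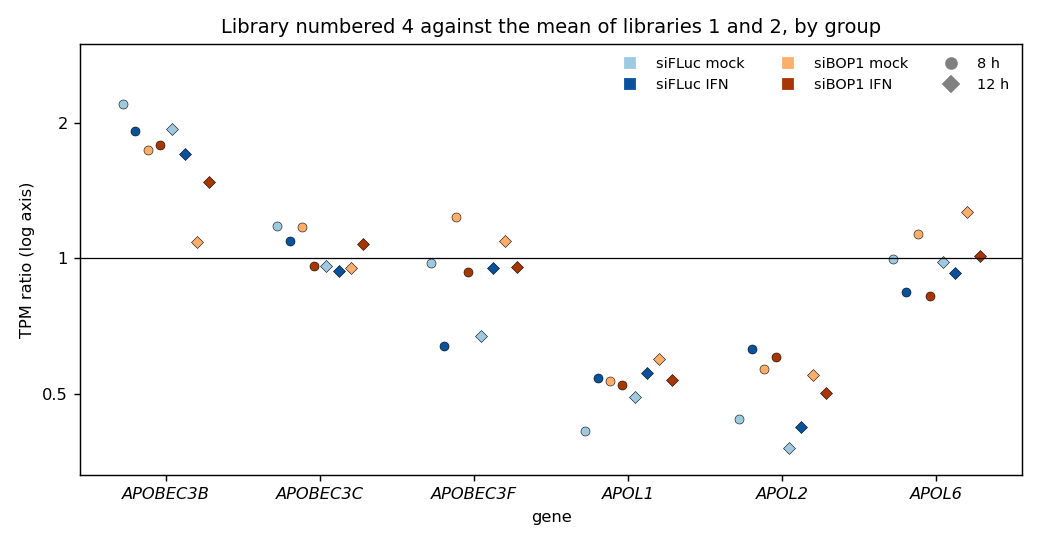
Ratio of TPM in the library numbered 4 to the mean of libraries 1 and 2 of the same group (vertical axis, log scale) for the 6 genes above the filter in mock libraries; colour gives siRNA and treatment, and shape the time. All 8 ratios of APOBEC3B lie above 1 and all 8 of APOL1 and of APOL2 lie below 1, whereas those of APOBEC3C, APOBEC3F and APOL6 fall on both sides.

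Correlations over the 24 libraries did not set APOL1 apart from APOL3 and APOL6. APOL3 and APOL6 followed each other closely (Pearson r = 0.995). APOL1 was as close to APOL3 and APOL6 (r = 0.974 each) as to APOL2 (r = 0.975). APOL2 had r = 0.935 with APOL3 and 0.932 with APOL6. APOBEC3F and APOL6 had r = 0.988, while APOBEC3B and APOL2 had r = 0.43. These values include the difference between mock and interferon libraries. In deviations from the group means, r was 0.95 between APOL1 and APOL2, -0.91 between APOBEC3B and each of APOL1 and APOL2, and 0.08 between APOL3 and APOL6. The libraries share a numbering, so these values carry no test.

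The next question was whether depletion of BOP1 altered the level of these genes. None of the 8 tested genes was called in any of the 4 comparisons of siBOP1 with siFLuc, where the 32 log2 differences ran from -0.15 to 0.54 (lowest limma adjusted p = 0.11, 1 of 32 with an unadjusted p under 0.05). Of all genes, the share called higher was 1.49% and 0.903% in mock cells at 8 h and 12 h and 1.25% and 0.392% under interferon. The share called lower was 0.666%, 0.697%, 0.76% and 0.268% in the same order. The median of the 8 was 0.19, 0.05, 0.18 and 0.06, beside 0.03, 0.00, -0.01 and -0.01 for all genes. APOBEC3G and APOL3 stayed under 1 TPM in every mock library, so little difference could show for them there. For the other 6 genes the median was 0.25, 0.12, 0.12 and 0.03.

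APOL1 and APOL6 had the largest differences. In mock cells at 8 h APOL1 had 33.1, 21.7 and 14.6 TPM with siBOP1 and 21.5, 18.1 and 8.17 TPM with siFLuc in libraries 1, 2 and 4. The siBOP1 library was the higher in each number, yet the ranges overlapped. The difference was 0.54 (SE 0.40, limma adjusted p = 0.691), and with the library number as a block the SE was 0.09 and the adjusted p 0.00151. In mock cells at 12 h it was 0.31 (adjusted p = 0.819, or 0.0428 with the block), from 24.1, 21.6 and 13.6 TPM against 18.9, 19.7 and 9.51 TPM. Over the 4 comparisons APOL1 was higher with siBOP1 in 12 of 12 pairs of the same number, and the other tested genes in 6 to 11 of 12. The share of all genes with such a count was not computed. Under interferon the unblocked APOL1 differences were 0.24 at 8 h and 0.09 at 12 h (limma adjusted p = 0.888 and 0.985). Without the block, leaving out the siFLuc mock 12 h library numbered 4 turned its 12 h difference to -0.0036.

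APOL6 in mock cells at 8 h had 8.09, 6.75 and 8.40 TPM with siBOP1 and 6.27, 5.18 and 5.71 TPM with siFLuc, with no overlap. The difference was 0.38 (SE 0.12, limma adjusted p = 0.11), and with the block it passed the threshold (SE 0.10, adjusted p = 0.0275). At 12 h APOL6 had 7.33, 7.44 and 9.38 TPM against 7.26, 6.95 and 6.98 TPM, again without overlap, and the difference of 0.16 passed in neither fit. With the block, 2 of 8 members were called higher in mock cells at 8 h and 1 of 8 at 12 h, beside 5.91% and 4.31% of all genes called higher and 2.58% and 3.35% called lower. Under interferon none of the 8 was called with the block, beside 4.97% higher and 3.84% lower over all genes at 8 h and 2.16% and 1.61% at 12 h. There APOBEC3F at 12 h had 28.0, 30.9 and 28.1 TPM with siBOP1 and 34.3, 31.2 and 31.2 TPM with siFLuc, with no overlap and a difference of -0.15 (SE 0.17, limma adjusted p = 0.914). APOL3 at 8 h had 21.7, 19.5 and 23.0 TPM with siBOP1 and 18.7, 17.6 and 18.1 TPM with siFLuc, also without overlap. Counted over the 8, siBOP1 libraries all lay above siFLuc libraries for 2 in mock cells at 8 h (APOL6, and APOBEC3G at 0.151 TPM or less), 1 in mock cells at 12 h and 1 under interferon at 8 h, beside 12.4%, 10.4% and 9.84% of all genes. Under interferon at 12 h they lay below for 1, beside 5.61%.

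**Figure D5:**
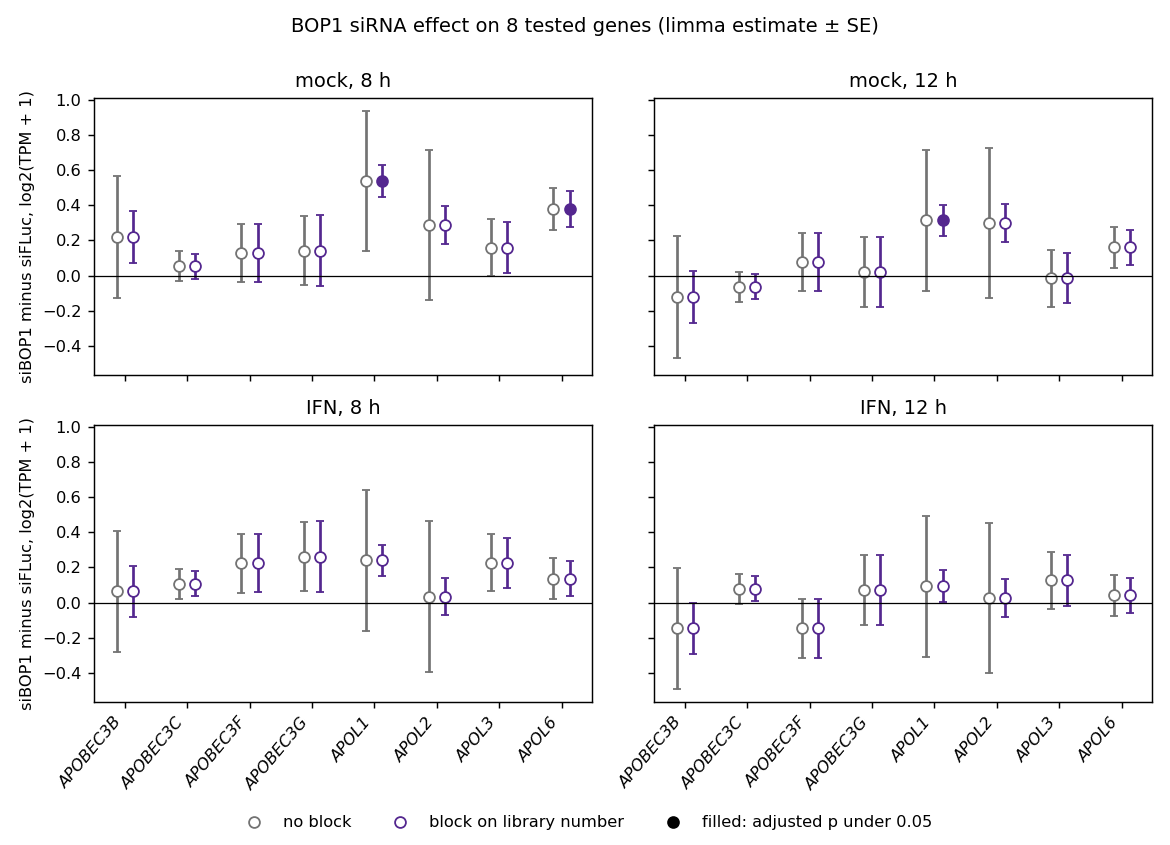
Difference of siBOP1 from siFLuc on the log2(TPM + 1) scale (vertical axes) for the 8 tested genes, by treatment and time; points are limma estimates and bars ± SE, without (grey) and with (purple) the library number as a block, and filled points have an adjusted p under 0.05. The filled points are APOL1 and APOL6 in mock cells at 8 h and APOL1 in mock cells at 12 h, all in blocked fits.

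The design also asked whether BOP1 depletion altered the interferon response itself. The interaction of siRNA and interferon was called for 0 of 8 genes at either time by limma, with 0 of 16 unadjusted p-values under 0.05, and 0% of all genes were called at either time in either direction. The estimates, siBOP1 minus siFLuc, ran from -0.30 for APOL1 at 8 h (SE 0.57) to 0.14 for APOBEC3C at 12 h (SE 0.12). With the block, 1 of 16 unadjusted p-values was under 0.05 (APOL1 at 8 h, 0.0315, adjusted p = 0.956). Without the siFLuc mock 8 h library numbered 4 the APOL1 estimate at 8 h was 0.09, and without the siBOP1 interferon 8 h library numbered 4 it was 0.01, so no direction is given for it.

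The last comparison set the response at 12 h against that at 8 h. No gene of the 8 was called in either cell population by limma, beside 0% of all genes called higher in both and 0.00623% (siFLuc) and 0% (siBOP1) called lower. Of 16 unadjusted p-values 3 were under 0.05, and they belonged to APOL6 in both populations (-0.57, SE 0.17, in siFLuc and -0.45, SE 0.17, in siBOP1 cells) and APOBEC3F in siBOP1 cells (-0.68, SE 0.23). Adjusted p-values were 1.0 for all 3. The APOL6 interferon libraries at 8 h, at 125 to 159 TPM in siFLuc cells, all lay above those at 12 h, at 107 to 121 TPM. The siFLuc mock libraries went the other way, at 5.18 to 6.27 TPM at 8 h and 6.95 to 7.26 TPM at 12 h. Both shifts enter the APOL6 difference. In siBOP1 cells the mock ranges, 6.75 to 8.40 and 7.33 to 9.38 TPM, overlapped. The share of all genes with such a separation in time was not computed. APOL1 had the opposite sign, 0.24 in siFLuc and 0.32 in siBOP1 cells, also without a call.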

How the data were processed

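Polyadenylated RNA of 24 A549 libraries was read from 1 table of TPM values deposited by the authors, with 1 column per library and 60609 gene rows, each column summing to 1000000. The aligner, annotation and build behind the deposited TPM values are not given in the sources used here, and neither is the treatment of strand or of reads common to several genes, which could move values between near-identical APOBEC3 genes. Of the columns, 16 matched a labelled replicate and the 8 numbered 4 were assigned to their group only. TPM values keep no depth, so no counting interval is given.

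The tests used limma 3.58.1 (R 4.3.3) on log2(TPM + 1), for genes with at least 1 TPM in 3 libraries (16062 genes). A mean per group was fitted over all 24 libraries with an intensity trend, without a block, for 12 comparisons, and p-values were adjusted by Benjamini-Hochberg over all genes in each, with a threshold of 0.05. Fold changes on this scale understate the change of low genes. The code was tested on simulated data. Deviations from the group means correlated between libraries of the same number in all 8 comparisons (r between 0.115 and 0.508), so the library numbers were taken to pair the libraries, and a fit with the library number within time as a block is given beside the results it changed. The pairing comes from the column names alone. Unlike numbers were not compared, and deviations from a group mean balance each other within the group. A shared shift of the libraries numbered 4 would thus also make those numbered 1 and 2 correlate. The check therefore cannot show that libraries 1 and 2 are paired.

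Alternatives were a pseudocount of 0.1, no filter, a mean of at least 5 TPM, scaling by median of ratios or by quantiles, no trend, only the groups compared, the replicate block, the libraries numbered 1 and 2 only, and leaving out each library. The members and all gene and marker lists were chosen with earlier results of these data known. Genes named besides the members came from lists of interferon signalling, restriction factors, uracil in DNA, cell cycle and NF-kB regulators, flanking genes, other family members and cell type markers, and from the genes most alike by Pearson r with a mean of at least 5 TPM. Windows of 75 bases and coordinates were taken from GENCODE 29. Sequences of promoters and proteins were not analysed here. Results for some list genes are not reported here.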

Additional observations from a re-analysis of the deposited data

How the results depend on the processing

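With the replicate block, 2 of the 8 tested members were called higher with siBOP1 in mock cells at 8 h and 1 of 8 at 12 h, against 0 each without it. The block also moved APOBEC3B past the threshold in all 4 interferon comparisons and changed no other call of a member. Apart from the BOP1 counts above, 214 counts of called members under alternative settings, and all 192 with 1 library left out, were equal or close to the main count. Close allowed the call of 1 gene to change. APOBEC3B also passed in all 4 interferon comparisons among the libraries numbered 1 and 2 only. In siFLuc cells at 12 h it passed with quantile scaling (limma adjusted p = 0.0493) and without the mock library numbered 4 (0.0314). With only the groups compared, it passed in siBOP1 cells at 12 h (0.0367) and APOBEC3C lost its call in siFLuc cells at 12 h (0.0519). When 1 library was left out, some BOP1 differences of members, none of them called without the block, changed sign. For APOL1 they ran from -0.0036 to 0.5479 in mock cells at 12 h, from -0.0443 to 0.548 under interferon at 8 h and from -0.1891 to 0.3919 under interferon at 12 h (values below 0 without the siFLuc library numbered 4, and at 12 h under interferon also -0.045 and -0.0681 without the siBOP1 library numbered 1 or 2). For APOL6 under interferon at 12 h they ran from -0.0153 to 0.1041, and for the APOL1 interaction of siRNA and interferon at 8 h from -0.5822 to 0.0934, with 0.0102 without the siBOP1 interferon library numbered 4. The cause of these shifts was not tested. Scaling by median of ratios moved the median change of all genes by 0.136 in siBOP1 cells at 8 h. Depth is unknown, which limits what can be said of APOBEC3D, APOBEC3G and APOL3 in mock cells.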

Other observations

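A list of 10 genes that act on uracil in DNA, the product of APOBEC3 deamination, was read in the same fits. By limma 0 of 10 rose in any interferon comparison, beside 5.77% to 7.17% of all genes, and 0, 1, 1 and 1 fell in siFLuc at 8 h and 12 h and siBOP1 at 8 h and 12 h, beside 5.07% to 9.11%. These counts are near what those shares give for 10 genes. APEX1, the main endonuclease at abasic sites, fell at 12 h by 0.20 in siFLuc (SE 0.06, adjusted p = 0.0390) and by 0.29 in siBOP1 cells (SE 0.06, adjusted p = 0.00299). XRCC1, a scaffold of break repair, fell in siBOP1 cells at 8 h by 0.42 (SE 0.12, adjusted p = 0.0186). Of 11 regulators of the cell cycle and of NF-kB that have been linked to APOBEC3B, 1 rose and none fell in each comparison. The shares of all genes are those given for the uracil list, and these counts too are near what they give. The 1 was RELA, a subunit of NF-kB, which rose by 0.49, 0.82, 0.63 and 0.71 (SE 0.12 each).

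The comparisons of siBOP1 with siFLuc, made with 1 pool of siRNAs, gave a different set. UNG, the glycosylase that removes uracil from DNA, was the 1 gene of the 10 called. It was lower with siBOP1 in all 4 comparisons. Of all genes, 0.666% and 0.697% were called lower in mock cells at 8 h and 12 h, and 0.76% and 0.268% under interferon. In mock cells UNG went from 45.9 ± 5.09 to 20.7 ± 2.62 TPM at 8 h, siFLuc to siBOP1 (SD, n = 3 each). The log2 differences were -1.11 and -1.36 in mock cells and -1.06 and -1.23 under interferon, at 8 h and 12 h (SE 0.20 each, limma adjusted p = 0.00434, 0.000914, 0.00591 and 0.00342). Both calls under interferon were lost with only the groups compared (adjusted p = 0.111 and 0.406), and the one at 8 h without the siBOP1 interferon library numbered 2 (0.0513). Of the 16 flanking genes, 1 and 1 were called lower in mock cells at 8 h and 12 h, and 1 and 0 under interferon. The gene called was CBX6, a Polycomb protein whose gene lies near the APOBEC3 cluster. In mock cells at 8 h and 12 h its log2 differences were -0.81 and -0.73 (SE 0.14 each, limma adjusted p = 0.00374 and 0.0104). It had 35.4 ± 4.70 TPM with siFLuc and 19.6 ± 1.89 TPM with siBOP1 in mock cells at 8 h. With only the groups compared the adjusted p-values were 0.0709 and 0.205, and without the siBOP1 mock 12 h library numbered 4 the latter was 0.0673. Under interferon the CBX6 differences were -0.67 at 8 h (adjusted p = 0.0148), a call lost when any 1 of 4 of the 6 libraries compared was left out (adjusted p up to 0.0731), and -0.45 at 12 h (adjusted p = 0.213). MOV10, an RNA helicase that restricts retroelements, was higher by 0.56 in mock cells at 8 h (SE 0.15, limma adjusted p = 0.0493). It was the 1 of the 17 restriction factors called there, beside 1.49% of all genes called higher. This call was lost when any 1 of the 6 libraries was left out (adjusted p up to 0.227). It held in only 3 of the 9 other settings. None of the 11 cell cycle and NF-kB regulators was called.

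The genes most alike in level over the 24 libraries, out of 10580 candidates, were taken by Pearson r. The mean of the tested APOBEC3 genes was closest to ADGRE1 (Pearson r = 0.986), PSMB8 (0.984), a proteasome subunit, and TAP1 (0.983), a peptide transporter. That of the APOL genes was closest to SAMD9L (0.997), GBP3 (0.996) and DTX3L (0.996). Singly, APOL6 was closest to PARP14 (0.998), APOL3 to the RNA sensor IFIH1 (0.997), APOL1 to TGM2 (0.995) and APOBEC3F to the RNA sensor TLR3 (0.993). APOBEC3G was closest to the chemokine CXCL11 (0.978), APOL2 to TSKU (0.983) and APOBEC3C to IL4I1 (0.962). APOBEC3B had the lowest best match, YJU2 (0.904). The libraries share treatments and numbers, and no part of these values was separated by either.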
